A study of Mus musculus with 19 samples.

Results

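Desmin knockout and wild-type muscle were compared in mice of 7 to 9 weeks, over 10 of the 19 arrays of the study. The 5 KO_Adult arrays came from Des(-/-) mice on the 129/SVE background and the 5 WT_Adult arrays from wild type 129/SVE mice. The tissue was the tibialis anterior, a mostly fast-twitch muscle of the lower leg. Every muscle of both genotypes had performed a bout of 50 eccentric contractions, in which the active muscle is lengthened, and RNA was taken 12 hours later. No unexercised muscle was analysed here, so each difference is one between exercised muscles and holds both the genotype's resting difference and any difference in the response to the bout. The labels name no Cre or tissue-specific promoter for the deletion. Whether each array stands for its own animal is not stated in the labels, and p-values therefore measure only how far these arrays scatter, some of which may be technical. The other 9 arrays, from mice of 12 to 14 months, entered the estimate of the spread, the choice of probe sets, the filter on dim genes, the pseudocount and the quantile scaling, but no group mean compared here.

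Desmin is the main intermediate filament protein of muscle. Its filaments run around the Z-discs, where the thin filaments of neighbouring sarcomeres meet. They tie myofibrils to one another and to the costameres, the adhesion sites that join the contractile apparatus to the fibre membrane and the matrix outside. They also link the myofibrils to nuclei and mitochondria. Loss of desmin in humans and mice is known for myopathy of skeletal and heart muscle.

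The values are MAS5 signals, the brightness of a probe set on a linear scale. All differences are KO_Adult minus WT_Adult on the log2 scale after quantile normalization, with a pseudocount of 4.76 added to each signal. They are given ± SE with n = 5 arrays a group, except in the second fit described below, which rests on 2 KO_Adult arrays. A gene was called, and is said to have risen or fallen, at a limma adjusted p under 0.05 over all 7436 genes tested. Signals are quoted in the order of arrays 1 to 5 of each group, a numbering that only names the arrays.

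One technical feature ran through the knockout group. The dap poly-A control, a bacterial RNA spiked in during labelling, read 1797, 1628 and 1713 on KO_Adult arrays 3, 4 and 5, but 1 and 17.2 on KO_Adult arrays 1 and 2 and 1 to 6.57 on the WT_Adult arrays. The 18S ribosomal RNA control followed the same division, at 5835 to 19660 on the 3 arrays and 29.1 to 181 on the other 7. The Actb 3' to 5' signal ratio was 1.27 to 1.34 on those 3 arrays and 0.446 to 1.04 on the rest, whereas the Gapdh ratio was 0.766 to 0.821 on all 10. On WT_Adult 1 to 5 the Actb ratio was 0.905, 1.03, 0.477, 0.446 and 0.670, and on KO_Adult 1 and 2 it was 0.968 and 1.04. Between KO_Adult arrays 3 to 5 and the WT_Adult arrays, genotype and control signal cannot be told apart. A second fit therefore carried a term for the control signal, and its difference rests on KO_Adult arrays 1 and 2 against the WT_Adult arrays, which all lack the signal. It is called the fit with the poly-A term, and its values stand beside the first ones for most genes and wherever it ended a call. The term does not adjust for the lower Actb ratios of WT_Adult 3 to 5. The 8 skeletal muscle markers checked (Ckm, Acta1, Mylpf, Tnnt3, Pvalb, Atp2a1, Ttn and Mb) read between 16821 and 43302 on every one of the 10 arrays.

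**Figure D1:**
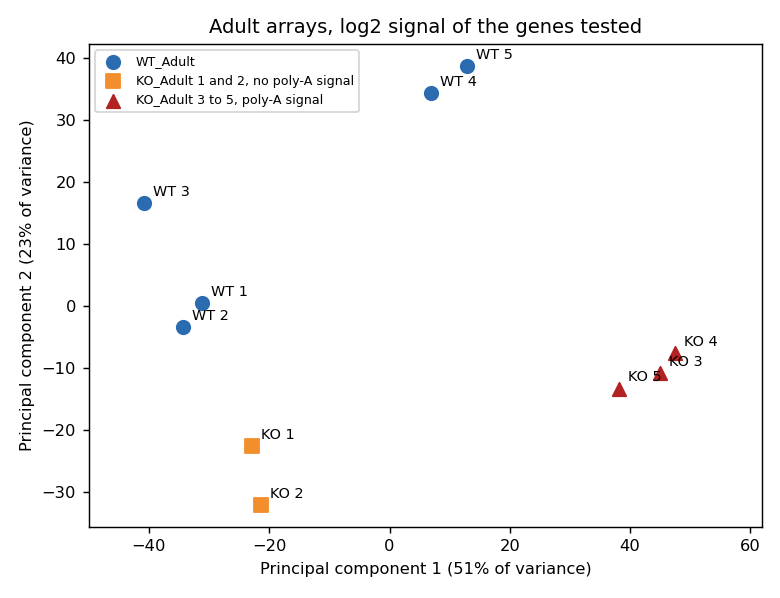
Principal components of the log2 signals of the genes tested on the 10 adult arrays, with each array as a point, circles for WT_Adult, squares for KO_Adult without and triangles for KO_Adult with poly-A control signal; the axes give each component's share of the variance. KO_Adult arrays 3 to 5 lie together at 38.1 to 47.5 on component 1, KO_Adult 1 and 2 lie at -22.9 and -21.3, and WT_Adult 4 and 5 stand apart from WT_Adult 1 to 3.

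The plot of principal components shows that the first component, with 51% of the variance, divided the knockout arrays along the poly-A signal, and that the second, with 23%, placed every knockout array below every wild-type array, the nearest pair being KO_Adult 4 at -7.67 and WT_Adult 2 at -3.46. The wild-type group was itself divided: WT_Adult 4 and 5 lay at 6.90 and 12.9 on component 1 and WT_Adult 1, 2 and 3 at -31.1, -34.3 and -40.9. Across genes, arrays correlated at r = 0.903 to 0.982 within WT_Adult, 0.867 to 0.977 within KO_Adult and 0.818 to 0.966 between the groups.

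The deleted gene was lower on every knockout array than on any wild-type array. Des, which encodes desmin, read 13699.6, 14092, 22313, 19606 and 22242 on the WT_Adult arrays and 879, 311, 508, 515 and 391 on the KO_Adult arrays. The groups were separated by more than an order of magnitude. The log2 difference was -5.00 ± 0.35, adjusted p = 6.42e-08, and -4.87 ± 0.47, adjusted p = 9.03e-06 with the poly-A term. An exact two-sided permutation test over the 252 regroupings of the 10 arrays gave p = 0.00794, the smallest p that 5 against 5 arrays allow. A second, dimmer Des probe set averaged 166 in WT_Adult and 74.7 in KO_Adult, a log2 difference of -0.86. Of 10 tested genes for intermediate filaments and their linkers, 1 was called higher, 0 lower and 9 did not pass. The vimentin gene Vim was not called (-0.12 ± 0.25, adjusted p = 0.789). Sync, encoding the desmin-binding protein syncoilin, rose (1.20 ± 0.33, adjusted p = 0.0182), and had 0.22 ± 0.26, adjusted p = 0.637 with the term. Nes, encoding nestin, was not called (-0.51 ± 0.37, adjusted p = 0.353) but fell with the term (-1.51 ± 0.33, adjusted p = 0.0147). These 3 genes were chosen after their values were seen.

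Over all genes tested, 1241 of 7436, or 16.7%, were called. They comprised 544 that rose, or 7.32%, and 697 that fell, or 9.37%. On the normalized scale, on which overlap between groups is judged throughout, the arrays of the 2 groups did not overlap for 334 genes that were higher (4.49%) and 415 that were lower (5.58%) in the knockout. With the poly-A term 496 genes (6.67%) were called, 265 higher (3.56%) and 231 lower (3.11%). In the same direction in both fits were 174 genes that rose (2.34%) and 171 that fell (2.3%), together 27.8% of the 1241. Of the 1241, 1239 kept their sign with the term and 2 did not. All arrays compared with the term had also entered the first fit, by which these genes were chosen. Their shared sign was therefore largely built in and is no separate check. For 458 of the 1241 (36.9%), the difference on KO_Adult 3 to 5 was in size more than 2 times that with the term. The number of calls also depended on WT_Adult 3: without that array 751 genes were called. When arrays were centred on their median in place of quantile normalization, 916 genes were called higher and 368 lower, and without normalization 421 and 996, so the balance between rises and falls followed the scaling. Except for genes looked up after the counts were known, calls that a gene lost under this median centring are named with it. Calls lost with the title block are named too (652 genes called, 262 higher and 390 lower). In that block, arrays whose titles share the start of a code formed a random block. The same holds for the 10 adult arrays fitted alone (624 genes called, 245 higher and 379 lower). A list's count under a setting is to be read beside the counts over all genes in that setting.

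The largest rises and falls given next were taken among genes called in the same direction in both fits whose groups did not overlap. Their lack of overlap therefore follows from the choice. The largest rise belonged to Sln, which encodes sarcolipin, a small membrane protein that binds and inhibits the calcium pump of the sarcoplasmic reticulum. It read 546, 457, 121, 159 and 190.4 in WT_Adult and 11544, 13842, 7678, 9599 and 10698 in KO_Adult. Every knockout array was more than an order of magnitude above every wild-type array. Sln rose 42.4-fold (5.41 ± 0.44, adjusted p = 3.99e-07, and 5.57 ± 0.59, adjusted p = 2.58e-05 with the term). Fetub, encoding the plasma protease inhibitor fetuin-B, read 34.5, 20, 53.3, 32.6 and 40.4 in WT_Adult and 671, 629.6, 322, 288 and 237 in KO_Adult. KO_Adult 1 and 2 were the highest. It rose 11.9-fold (3.57 ± 0.37, adjusted p = 7.22e-06, and 4.30 ± 0.41, adjusted p = 9.03e-06 with the term).

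Among the genes so chosen was a pair that encodes calcium-binding S100 proteins. S100a4 read 606, 1192, 759, 487 and 374 in WT_Adult and 4822, 6714, 5751, 5515 and 9397 in KO_Adult, a 9.75-fold rise (3.29 ± 0.34, adjusted p = 8.45e-06). S100a13, known for a role in the non-classical release of FGF1, read 663, 657, 657, 438 and 501 in WT_Adult and 2122, 2623, 2070.0, 1872 and 1907 in KO_Adult, a 3.66-fold rise (1.87 ± 0.20, adjusted p = 8.45e-06). All knockout arrays were above all wild-type arrays for both. Serpinb1a, an inhibitor of neutrophil serine proteases, read 741, 613, 476, 729.5 and 330.3 in WT_Adult and 3311, 6545, 4982, 2812 and 3193 in KO_Adult and rose 7.03-fold (2.81 ± 0.31, adjusted p = 1.25e-05). Fst encodes follistatin, a secreted protein that binds and neutralizes activins and myostatin. Its signal was 52.4, 65.2, 47.8, 35.3 and 65.8 in WT_Adult and 247, 257, 291, 318 and 133 in KO_Adult, all knockout arrays lying above the wild-type range, and it rose 5.03-fold (2.33 ± 0.21, adjusted p = 1.51e-06, 2.42 ± 0.28, adjusted p = 5.74e-05 with the term).

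Among the other large rises, Myo5a, the gene of the cargo motor myosin Va, read 106, 88.5, 60.6, 116 and 157 in WT_Adult and 398, 272, 634, 949 and 627 in KO_Adult. It rose 5.71-fold (2.51 ± 0.28, adjusted p = 1.52e-05), more on the arrays with poly-A signal (2.93) than with the term (1.89). Ift122, a component of the transport complex of cilia, read 92.2, 84.7, 131, 103 and 80.1 in WT_Adult and 461, 709, 318, 300.0 and 496 in KO_Adult and rose 5.01-fold (2.33 ± 0.26, adjusted p = 1.27e-05). Rab7b, a GTPase of late endosomes, rose 3.49-fold (1.80 ± 0.26, adjusted p = 0.000198), and its second, dimmer probe set averaged 42.4 in WT_Adult and 76.3 in KO_Adult. Cpne2, a copine of the calcium-dependent phospholipid-binding family, rose 3.49-fold (1.80 ± 0.21, adjusted p = 1.96e-05). Hhatl, a relative of hedgehog acyltransferase, rose 5.47-fold (2.45 ± 0.51, adjusted p = 0.00309), with 448, 340.1, 265, 166 and 279.7 in WT_Adult and 969.7, 1918, 1398, 913 and 2952 in KO_Adult. Vegfd, a ligand of lymphatic and blood vessel growth, read 191, 106, 79.3, 90 and 84.5 in WT_Adult and 272, 298, 448, 482 and 405 in KO_Adult and rose 3.94-fold (1.98 ± 0.27, adjusted p = 0.000115). Of its 2 other probe sets, one averaged 91.3 in WT_Adult and 286 in KO_Adult, a log2 difference of 1.86 with a limma adjusted p of 0.000271, and the other averaged 158 and 227 and was not called.

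The largest fall after Des was that of Ybx2, a Y-box nucleic acid-binding protein best known from germ cells. It read 479, 536, 1398, 1065 and 1049 in WT_Adult and 43.7, 31.9, 15.1, 50.3 and 45.1 in KO_Adult. No knockout array came near the wild-type range. The log2 difference was -4.27 ± 0.29, adjusted p = 6.08e-08, and -4.30 ± 0.38, adjusted p = 7.23e-06 with the term. E2f4, a transcription factor that mostly represses cell cycle genes, read 645, 679, 1039, 1046 and 1088 in WT_Adult and 184, 152, 30.7, 47.8 and 55.2 in KO_Adult. The fall was 10-fold (-3.32 ± 0.38, adjusted p = 1.96e-05), larger on KO_Adult 3 to 5 (-4.03) than with the term (-2.26). Actc1, the cardiac alpha-actin that skeletal muscle makes during development and regeneration, read 16124, 17272, 19102, 14189 and 15149 in WT_Adult and 2203, 2712, 4327, 3134 and 3752 in KO_Adult, 5.1-fold lower (-2.35 ± 0.23, adjusted p = 4.98e-06, -2.71 ± 0.28, adjusted p = 2.54e-05 with the term). Chac1, a glutathione-degrading enzyme and a target of the stress factor ATF4, read 582, 1469, 1304, 1016 and 1188 in WT_Adult and 209.6, 151, 203, 268 and 218 in KO_Adult, 4.82-fold lower (-2.27 ± 0.27, adjusted p = 3.15e-05).

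Among the genes of the other large falls, Slc16a3 encodes MCT4, the monocarboxylate transporter that exports lactate from fast fibres. It read 1876, 1320.0, 4479, 4116 and 4777 in WT_Adult and 1202, 819.7, 205, 291 and 282 in KO_Adult, a fall of 6.52-fold (-2.70 ± 0.44, adjusted p = 0.000592), with -3.48 on KO_Adult 3 to 5 and -1.53 with the term. Itga5, a chain of the fibronectin receptor, read 209, 202, 687, 597 and 777 in WT_Adult and 156, 85.5, 90.2, 93 and 41.1 in KO_Adult (-2.08 ± 0.35, adjusted p = 0.000878). Fzd5, a receptor for Wnt ligands, read 155, 339.7, 386, 266 and 197 in WT_Adult and 21.9, 29.6, 7.7, 80.1 and 37.4 in KO_Adult (-2.71 ± 0.39, adjusted p = 0.000216). Lpin3, a phosphatidate phosphatase of lipid synthesis, fell 7-fold (-2.81 ± 0.54, adjusted p = 0.00211). Tmcc3, a transmembrane coiled-coil protein, fell 4.61-fold (-2.20 ± 0.38, adjusted p = 0.000973), by less with the term (-0.96 ± 0.25, adjusted p = 0.0302). Ace, the angiotensin-converting enzyme of the vessel wall, fell 5.12-fold (-2.35 ± 0.36, adjusted p = 0.000303). Tie1, an endothelial receptor tyrosine kinase, is described with the other endothelial genes.

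**Figure D2:**
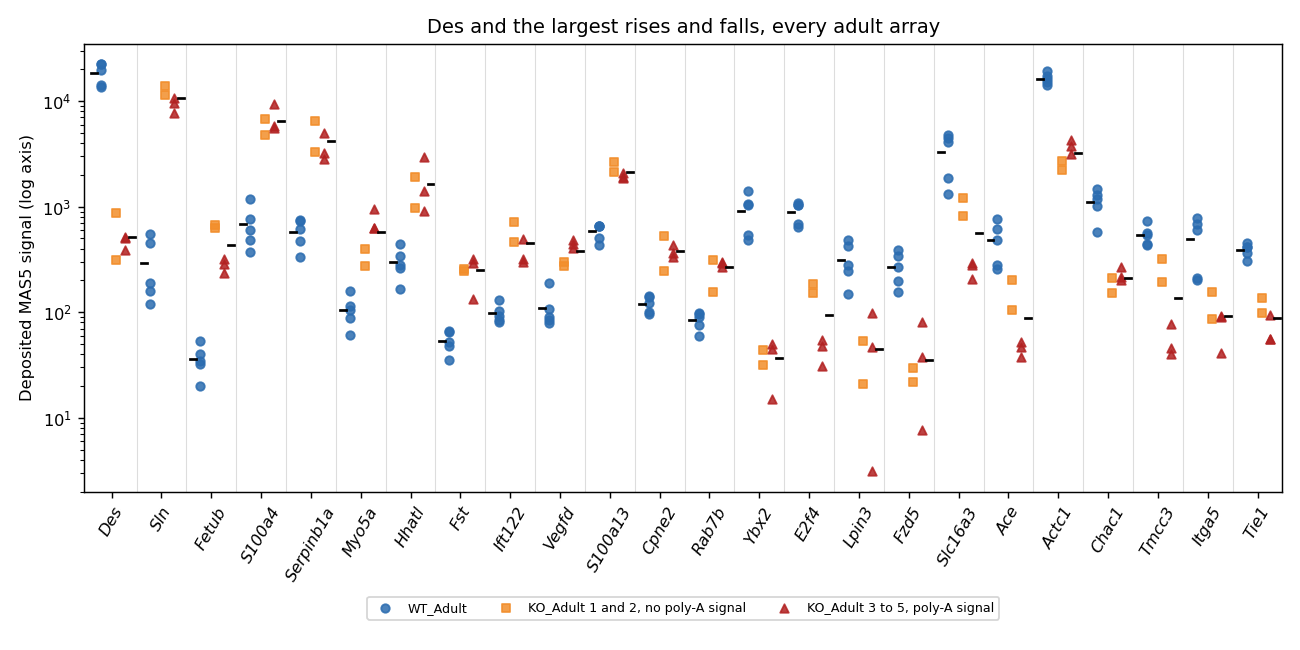
Deposited MAS5 signal on a log axis for Des and for the 12 largest rises and 11 of the 12 largest falls among genes called in both fits, with 1 point per adult array (circles WT_Adult, squares and triangles KO_Adult without and with poly-A control signal) and short bars for each group's mean. Apart from Des, the genes shown were chosen among those whose groups did not overlap after normalization. The separation of their points follows from that choice. Sln has the widest rise.

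Endothelial genes had the largest share of falls among the 49 lists described or counted here. Blood vessel endothelium is recognised by its junction proteins, receptors for angiogenic ligands and a set of ETS and SOX transcription factors, and skeletal muscle is densely supplied with capillaries. Of 30 tested endothelial marker genes, 22 fell and 0 rose, or 73.3% called lower against 9.37% of all genes tested. All 30 log2 differences were below 0, with a median of -0.97 against 0.04 over all genes. With the poly-A term 15 fell and 0 rose, against 3.11% of all genes called lower, and the median was -1.0. On KO_Adult 3 to 5 the median was -0.92. The endothelial marker signals summed to 26197 to 31913 on the WT_Adult arrays and to 11108 to 14884 on the KO_Adult arrays, with no overlap. KO_Adult 1 and 2, without poly-A signal, summed to 12928 to 14884. In whole muscle, fewer cells of a type and less RNA per cell cannot be told apart.

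Upstream windows of 3 of these genes are shown to set the shared fall beside their promoter sequence, since many endothelial genes are known targets of ETS factors. The sequences are the 250 bases before the annotated start site, from RefSeq (GRCm38.p6), written 5' to 3' in the direction of the gene, and capitals mark CAGGAAG or CCGGAAG, or their reverse complements CTTCCTG or CTTCCGG, as ETS-type letters. Egfl7 has 3 windows in the table, with 2, 1 and 0 matches, of which the one with 2 (chr2:26580833-26581082, plus strand) is shown. Robo4 (chr9:37401722-37401971, plus strand) holds 1 match and Tie1 (chr4:118489850-118490099, minus strand) 0, each in its 1 window.
Egfl7: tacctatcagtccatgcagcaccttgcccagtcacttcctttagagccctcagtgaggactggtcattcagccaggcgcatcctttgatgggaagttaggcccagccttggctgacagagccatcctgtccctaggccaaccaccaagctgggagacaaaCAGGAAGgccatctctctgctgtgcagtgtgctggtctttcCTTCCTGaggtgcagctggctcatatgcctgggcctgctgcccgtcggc
Robo4: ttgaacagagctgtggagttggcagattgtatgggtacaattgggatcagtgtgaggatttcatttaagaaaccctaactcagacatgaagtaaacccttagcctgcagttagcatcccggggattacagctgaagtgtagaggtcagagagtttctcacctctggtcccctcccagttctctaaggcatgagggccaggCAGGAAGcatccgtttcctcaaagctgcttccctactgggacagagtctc
Tie1: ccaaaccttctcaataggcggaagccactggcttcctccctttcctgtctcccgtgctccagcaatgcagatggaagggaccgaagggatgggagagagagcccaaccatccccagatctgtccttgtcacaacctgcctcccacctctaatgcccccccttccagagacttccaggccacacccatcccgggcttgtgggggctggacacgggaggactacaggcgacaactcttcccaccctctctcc
Of the 22 endothelial genes called lower, 12 had a window in the promoter table and 5 of these 12 held a match in at least 1 window. Of all 27025 genes with a window 19% held a match in at least 1 window, and of the 6084 tested genes with a window 27%. A match is a description of letters and no evidence of binding.

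Tie1 had the largest fall of the list. It read 412, 367, 415, 303 and 456 in WT_Adult and 135, 99.1, 55.5, 56.3 and 94.7 in KO_Adult. The highest knockout array was well below the lowest wild-type array. Its fall was 3.94-fold (-1.98 ± 0.21, adjusted p = 9.11e-06, -1.55 ± 0.24, adjusted p = 0.00102 with the term). Eng, encoding endoglin, a co-receptor for TGF-beta and BMP ligands, read 913, 986, 1436, 1376 and 1328 in WT_Adult and 516, 398, 409.9, 315 and 412 in KO_Adult (-1.52 ± 0.21, adjusted p = 0.000164), and its second probe set averaged 371 in WT_Adult and 212 in KO_Adult. Sox18, a transcription factor of endothelial and lymphatic identity, read 793, 733, 1019, 848 and 746 in WT_Adult and 312, 322, 229, 291 and 270.1 in KO_Adult (-1.45 ± 0.16, adjusted p = 1.25e-05). The water channel gene Aqp1 read 8668, 9177, 12207, 9928 and 8788 in WT_Adult and 5666, 4738, 3277, 3730.0 and 3039.6 in KO_Adult (-1.32 ± 0.16, adjusted p = 2.88e-05). Esam, an adhesion molecule of endothelial junctions, read 1338, 1395, 1378, 1116 and 1086 in WT_Adult and 614, 542, 636, 674 and 620.3 in KO_Adult (-1.0 ± 0.14, adjusted p = 0.000106). For all 5 the groups did not overlap and the fall was also called with the term, at -1.55, -1.33, -1.27, -0.99 and -1.05 in the order given. Among genes chosen after their values were seen, the shown Robo4 (-0.96 ± 0.19, adjusted p = 0.00206) and Egfl7 (-0.82 ± 0.14, adjusted p = 0.000878) also fell in both fits. The VEGF receptor Kdr was not called (-0.68 ± 0.29, adjusted p = 0.12), and the pan-endothelial Pecam1 fell in the first fit (-1.62 ± 0.30, adjusted p = 0.0015) but was not called with the term (-0.72 ± 0.23, adjusted p = 0.0679).

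**Figure D3:**
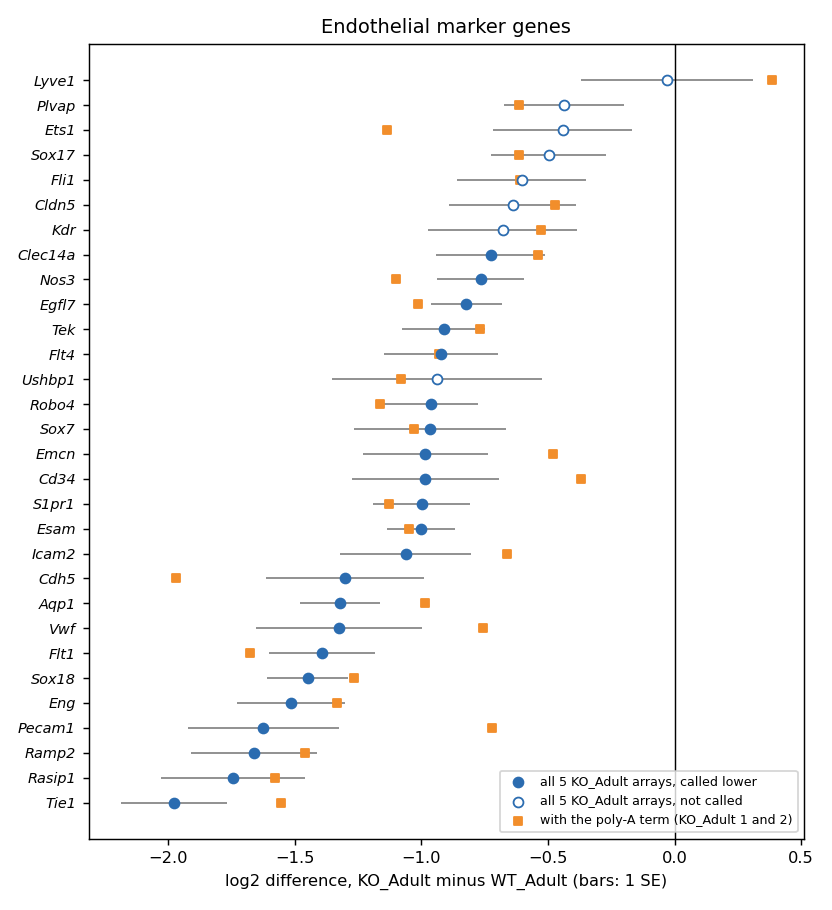
Log2 difference of the 30 tested endothelial markers, KO_Adult minus WT_Adult, with circles for all 5 KO_Adult arrays (filled where called lower, bars 1 SE) and squares for the fit with the poly-A term. All circles lie below 0, from Lyve1 near 0 to Tie1 at -1.98; Lyve1 alone has its square above 0.

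Among 17 markers of smooth muscle and pericytes there were 7 falls and 1 rise (41.2% and 5.88%, against 9.37% and 7.32% of all genes). The median was -0.57. There were 4 falls without WT_Adult 3, with the title block and with the 10 adult arrays alone. With the term 2 fell and 0 rose, with a median of -0.62. Their summed signal was 39030 to 57142 in WT_Adult and 28681 to 31847 in KO_Adult, also without overlap. That sum includes Abcc9, which is also counted in the list of fibre membrane channels and pumps. It also includes Synpo2, 1 of the 7 falls and described below as a Z-disc gene. Synpo2 averaged 8840 in WT_Adult and 3349 in KO_Adult, and the sum without it was not taken. Gucy1b1, a subunit of the nitric oxide receptor guanylate cyclase, read 197, 165, 201, 208 and 173 in WT_Adult and 99.8, 108, 84.4, 76.7 and 85.4 in KO_Adult (-0.80 ± 0.14, adjusted p = 0.00103). Notch3, the Notch receptor of mural cells, read 441, 522, 655, 494 and 483 in WT_Adult and 317, 292, 259, 319 and 280.2 in KO_Adult (-0.70 ± 0.14, adjusted p = 0.00225). Both fell with the term as well (-0.63 ± 0.17, adjusted p = 0.0376 for Gucy1b1 and -0.62 ± 0.18, adjusted p = 0.0452 for Notch3). Tagln, a smooth muscle actin-binding protein, fell (-1.24 ± 0.25, adjusted p = 0.00264) and had -0.95 ± 0.32, adjusted p = 0.0806 with the term. Smtn fell (-0.94 ± 0.25, adjusted p = 0.0165), but had -0.30 ± 0.24, adjusted p = 0.467 with the term and an adjusted p of 0.0517 without WT_Adult 3. The proteoglycan gene Cspg4 was the 1 marker that rose (0.92 ± 0.26, adjusted p = 0.0213, 0.38 ± 0.29, adjusted p = 0.434 with the term), and was looked up after the count was known. Smtn also lost its call with the title block, under median centring and with the 10 adult arrays alone.

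Notch and Wnt genes fell in several members and rose in none. Of 28 tested, 8 fell and 0 rose (28.6% lower, against 9.37% of all genes). The median was -0.19, and 4 fell with the term. Notch4, the Notch receptor of endothelium, read 322, 253, 592, 477 and 469.9 in WT_Adult and 158, 85, 114, 159.6 and 146 in KO_Adult (-1.48 ± 0.31, adjusted p = 0.00329, -1.64 ± 0.41, adjusted p = 0.0265 with the term). Wnt4, a Wnt ligand, read 435, 382, 660.5, 309 and 393 in WT_Adult and 190.5, 81.9, 221, 178 and 161 in KO_Adult (-1.25 ± 0.28, adjusted p = 0.00576, -1.58 ± 0.36, adjusted p = 0.0169 with the term). Heyl, a transcriptional target of Notch, fell (-1.20 ± 0.27, adjusted p = 0.00646) and had -0.96 ± 0.36, adjusted p = 0.112 with the term. Fzd5 and Notch3, given above, were the others called in both fits. The summed endothelial and mural marker signals given above, the latter with Synpo2 and Abcc9 in it, were also lower. Their part in these falls was not tested.

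Of 23 tested genes of the hypoxia and angiogenic list 2 rose and 4 fell (8.7% and 17.4%, against 7.32% and 9.37% of all genes), with a median of -0.23. With the term 1 rose and 4 fell, and 2 fell when KO_Adult 4 was left out, with the title block and with the 10 adult arrays alone. Vegfb, a VEGF-family ligand abundant in muscle fibres, read 2099.7, 2202, 4119, 3187 and 3533 in WT_Adult and 1119, 887, 872, 1006 and 868 in KO_Adult and fell 3.1-fold (-1.63 ± 0.20, adjusted p = 5.09e-05, -1.51 ± 0.27, adjusted p = 0.00338 with the term). Fgf1, a fibroblast growth factor, read 2550.5, 2191, 2859, 2244 and 2449.7 in WT_Adult and 641, 447, 527, 1493 and 479 in KO_Adult and fell 3.77-fold (-1.92 ± 0.25, adjusted p = 8.35e-05, -2.12 ± 0.33, adjusted p = 0.00126 with the term). Its second probe set averaged 1538 in WT_Adult and 257.8 in KO_Adult. Vegfd rose, as given above. Epas1, the hypoxia-inducible factor 2 alpha gene, fell (-2.03 ± 0.57, adjusted p = 0.0208), mostly through KO_Adult 3 to 5 (-2.74, against -0.97 ± 0.67, adjusted p = 0.388 with the term), and its adjusted p was up to 0.0613 without KO_Adult 4 or KO_Adult 5. Adm, encoding the vasodilator adrenomedullin, rose (0.76 ± 0.22, adjusted p = 0.0241), had 0.86 ± 0.29, adjusted p = 0.0842 with the term, and lost its call without any 1 of 3 arrays (adjusted p up to 0.0668). Epas1 and Adm lost their calls with the title block and with the 10 adult arrays alone.

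Of 17 fast fibre genes 0 rose and 2 fell, with a median of -0.04. Of 12 slow fibre genes 4 rose and 1 fell (33.3% and 8.33%, against 7.32% and 9.37% of all genes). The median was 0.75, and 2 rose without WT_Adult 1 or without KO_Adult 1. The other 7, Myh7, Myl2, Tnni1, Tnnc1, Tpm3, Atp2a2 and Mb, were not called in either fit. With the title block 1 slow fibre gene rose and 1 fell. The difference between the fast and slow lists was not tested. Besides Sln, Myoz2, a Z-disc calsarcin of slow and cardiac fibres, read 7423, 8074, 4212, 7093 and 4929.7 in WT_Adult and 13996, 16905, 9642, 9539 and 9566 in KO_Adult (0.87 ± 0.24, adjusted p = 0.0179, 1.20 ± 0.29, adjusted p = 0.0239 with the term, and adjusted p = 0.0584 without WT_Adult 3). Tnnt1, slow troponin T, read 104, 269.7, 282, 135 and 175 in WT_Adult and 857, 369, 623, 552 and 258 in KO_Adult (1.58 ± 0.46, adjusted p = 0.0255). Casq2, the slow and cardiac calsequestrin, read 959.9, 661, 983, 1253 and 714 in WT_Adult and 1900.5, 2964, 996, 1139.8 and 1474 in KO_Adult (0.79 ± 0.25, adjusted p = 0.0386). The groups overlapped for both, and the calls were lost without any 1 of 5 arrays for Tnnt1 (adjusted p up to 0.0625) and 7 arrays for Casq2 (up to 0.0862). With the term Tnnt1 had 1.82 ± 0.62, adjusted p = 0.0865. Casq2 was nevertheless called with the term (1.39 ± 0.26, adjusted p = 0.00511). Myl3, the slow and ventricular essential light chain, went the other way, at 3243, 4128, 3096, 1641 and 1461 in WT_Adult and 2158, 1026, 408, 466 and 767 in KO_Adult (-1.62 ± 0.45, adjusted p = 0.0193), and its call was lost without WT_Adult 3, KO_Adult 3 or KO_Adult 4 (adjusted p up to 0.0592). With the term it was -0.72 ± 0.51, adjusted p = 0.401. Myoz2, Tnnt1 and Casq2 lost their calls with the title block, Myl3 under median centring, and Casq2 with the 10 adult arrays alone.

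Of 12 tested developmental sarcomere genes and denervation-responsive genes 5 rose, 1 fell and 6 did not pass (41.7% called higher and 8.33% lower, against 7.32% and 9.37% of all genes), and the median was 0.55. The fall was that of Actc1, given above. With the term 3 rose and 1 fell. Tnnt2, the cardiac and embryonic troponin T, read 110.5, 72, 63.5, 58.2 and 72.2 in WT_Adult and 190.4, 149, 187, 131 and 246 in KO_Adult (1.44 ± 0.29, adjusted p = 0.00239, 1.40 ± 0.38, adjusted p = 0.0376 with the term). Myh8, perinatal myosin heavy chain, read 113, 93.3, 113, 148 and 78.1 in WT_Adult and 379, 169.8, 160.5, 179.8 and 319.6 in KO_Adult (1.28 ± 0.27, adjusted p = 0.00356, 1.46 ± 0.35, adjusted p = 0.0235 with the term). Ncam1, an adhesion molecule that spreads over denervated and regenerating fibres, read 129, 145, 146, 209 and 150.4 in WT_Adult and 251, 396, 187, 212 and 207 in KO_Adult (0.84 ± 0.22, adjusted p = 0.0137, 1.23 ± 0.25, adjusted p = 0.00944 with the term). These 3 did not overlap between groups after normalization, although the deposited Ncam1 signals did. Myh3, embryonic myosin heavy chain, read 116, 42.3, 57.7, 64.3 and 97 in WT_Adult and 163, 95.4, 162, 199.6 and 198 in KO_Adult, where KO_Adult 2 lay within the wild-type range (1.32 ± 0.29, adjusted p = 0.00475, 1.0 ± 0.37, adjusted p = 0.114 with the term). Chrnb1, the beta subunit of the muscle acetylcholine receptor, was the fifth that rose (0.58 ± 0.17, adjusted p = 0.0237, 0.50 ± 0.22, adjusted p = 0.176 with the term), and was looked up after the count was known.

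Of 27 tested calcium handling genes 4 rose and 2 fell (14.8% and 7.41%, against 7.32% and 9.37% of all genes). The median was -0.02, and with the term 5 rose and 0 fell. Under median centring 7 rose and 1 fell, while of all 7436 genes 916 rose and 368 fell. The 4 rises include Sln and Casq2, which were also counted in the slow fibre list and are given above with their limits. Cacng1, the gamma subunit of the voltage-gated calcium channel of the T-tubule, read 3392, 3193, 3266, 2549 and 2697 in WT_Adult and 6309, 7185, 5903, 6193 and 6189.9 in KO_Adult (1.0 ± 0.11, adjusted p = 1.25e-05, 1.04 ± 0.14, adjusted p = 0.00034 with the term). Camk2d, a calcium/calmodulin-dependent kinase, read 268, 238, 175, 317 and 274 in WT_Adult and 546, 553, 626, 1076 and 615 in KO_Adult (1.51 ± 0.20, adjusted p = 7.48e-05, 1.29 ± 0.25, adjusted p = 0.00609 with the term), and its second probe set averaged 343 in WT_Adult and 373 in KO_Adult and was not called. Jph1, junctophilin 1, which holds the T-tubule to the sarcoplasmic reticulum, read 1123, 758, 1130.1, 1752 and 2350.4 in WT_Adult and 595, 644, 236, 258 and 217 in KO_Adult. It fell (-1.88 ± 0.41, adjusted p = 0.00476), and had -1.04 ± 0.46, adjusted p = 0.181 with the term. Rcan1, a calcineurin regulator and target, fell (-0.83 ± 0.25, adjusted p = 0.0299), had -0.94 ± 0.34, adjusted p = 0.102 with the term, and its call was lost without any 1 of 5 arrays (adjusted p up to 0.0822). Rcan1 also lost its call under median centring and with the 10 adult arrays alone.

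**Figure D4:**
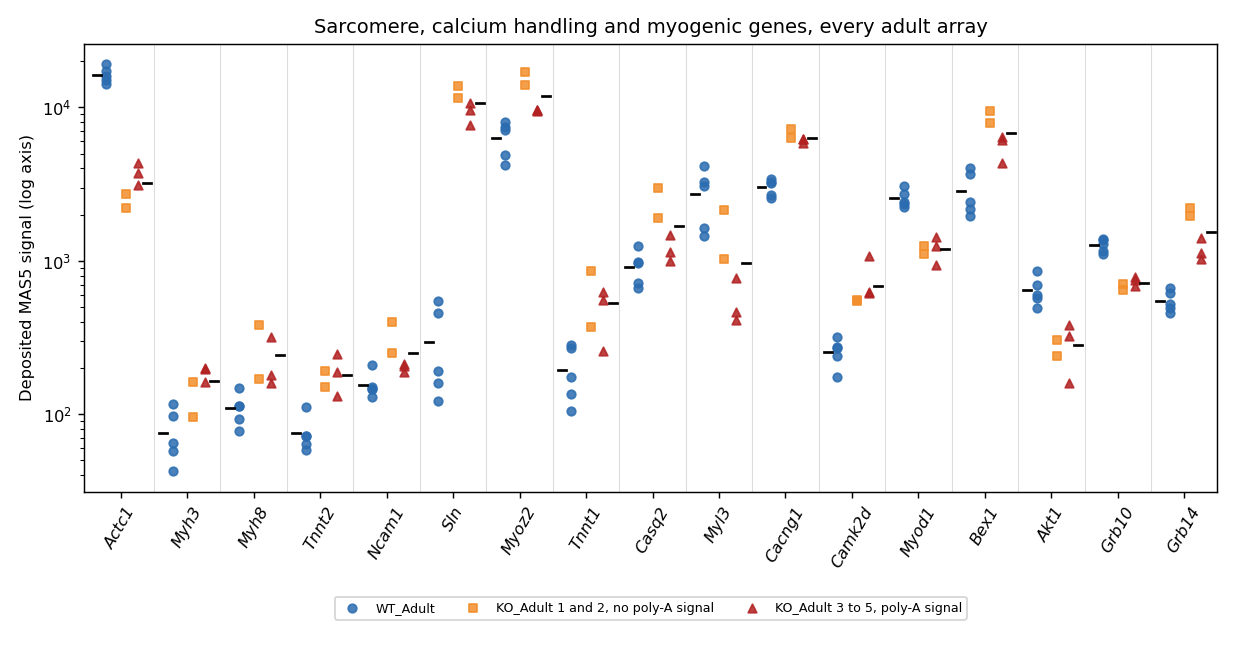
Deposited MAS5 signal on a log axis for sarcomere, calcium handling, myogenic and insulin-signalling genes, with 1 point per adult array (circles WT_Adult, squares and triangles KO_Adult without and with poly-A control signal) and short bars for group means. Cacng1, Myod1, Akt1, Grb10 and Grb14 have no overlap between groups, whereas Tnnt1, Casq2 and Myl3 overlap.

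Desmin filaments attach to the Z-disc and the costamere. Of 21 genes of the Z-disc and M-band 2 rose and 3 fell (9.52% and 14.3%, against 7.32% and 9.37% of all genes), with a median of -0.06, and under median centring 3 rose and 1 fell. Smpx, a small protein of the costamere and Z-disc region, read 11936, 12912, 13142, 15588 and 14869.8 in WT_Adult and 17368, 20321, 18485, 17836 and 19038 in KO_Adult (0.52 ± 0.10, adjusted p = 0.00187, 0.50 ± 0.13, adjusted p = 0.0286 with the term). Pdlim7, a PDZ and LIM domain protein that binds actin filaments, read 9010.2, 8369, 10863, 7334 and 7574 in WT_Adult and 6276, 6113, 4155, 3818 and 4594 in KO_Adult (-0.86 ± 0.14, adjusted p = 0.000795, -0.56 ± 0.16, adjusted p = 0.0404 with the term). Synpo2, encoding the actin-bundling Z-disc protein myopodin, fell (-1.64 ± 0.39, adjusted p = 0.00885), with -2.25 on KO_Adult 3 to 5 and -0.72 ± 0.41, adjusted p = 0.298 with the term. Ldb3, encoding the Z-disc protein ZASP, fell (-0.44 ± 0.14, adjusted p = 0.0398), but had -0.21 ± 0.17, adjusted p = 0.459 with the term and lost its call without any 1 of 6 arrays (adjusted p up to 0.104), and 2 other probe sets of it averaged higher in KO_Adult, at 8550 and 10540 and at 1530 and 2545 in WT_Adult and KO_Adult. Ldb3 also lost its call with the title block, under median centring and with the 10 adult arrays alone, and Pdlim7 under median centring.

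Of 27 genes of the costamere and the dystrophin complex 3 rose and 4 fell (11.1% and 14.8%, against 7.32% and 9.37% of all genes). The median was 0.09, and with the term 1 rose and 2 fell. Cav3, the muscle caveolin of the fibre membrane, read 1221, 1639, 1446, 979 and 1146 in WT_Adult and 2241, 2648, 2701, 2284 and 2096 in KO_Adult (0.87 ± 0.16, adjusted p = 0.0018, 0.91 ± 0.22, adjusted p = 0.0214 with the term). Lama2, the laminin chain of the muscle basement membrane, read 442, 457, 452, 472 and 556 in WT_Adult and 752, 659.6, 592, 966 and 874 in KO_Adult (0.74 ± 0.16, adjusted p = 0.00374, 0.68 ± 0.20, adjusted p = 0.0536 with the term). Tln1, talin 1, which links integrins to actin, read 2465, 2527, 3062, 2272 and 1749 in WT_Adult and 1401, 1192, 715, 678 and 774 in KO_Adult (-1.38 ± 0.23, adjusted p = 0.000719, -0.86 ± 0.24, adjusted p = 0.0413 with the term), although a dimmer Tln1 probe set averaged 349 in WT_Adult and 460.3 in KO_Adult. The ankyrins diverged: Ank3 rose (1.23 ± 0.31, adjusted p = 0.0107) and Ank1 fell (-1.45 ± 0.29, adjusted p = 0.00254), neither being called with the term (0.51 ± 0.32, adjusted p = 0.339 for Ank3 and -1.05 ± 0.36, adjusted p = 0.0883 for Ank1), and a second Ank1 probe set averaged 1502 in WT_Adult and 1453 in KO_Adult. When arrays were centred on their median 8 costamere genes were called higher and 2 lower, against 916 and 368 of all 7436 genes.

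Among myogenic factors and satellite cell genes 4 of 20 rose and 2 fell (20% and 10%, against 7.32% and 9.37% of all genes). The median was 0.14. The rises numbered 2 without WT_Adult 5 or KO_Adult 4 and 1 without KO_Adult 5, and with the 10 adult arrays alone 1 rose and 1 fell. Myod1, the myogenic determination factor, read 2416, 3066, 2728, 2347 and 2234 in WT_Adult and 1245, 1105, 1241, 1419.7 and 933 in KO_Adult. The highest knockout array was below the lowest wild-type array. It fell 2.17-fold (-1.12 ± 0.17, adjusted p = 0.000298, -1.08 ± 0.22, adjusted p = 0.00944 with the term). Bex1, a small protein induced in regenerating muscle, read 4017, 3668, 2177, 2433 and 1958 in WT_Adult and 9505, 7871, 6113, 6426 and 4315 in KO_Adult and rose 2.3-fold (1.20 ± 0.21, adjusted p = 0.000923, 1.54 ± 0.25, adjusted p = 0.0016 with the term). Cdkn1c, encoding the cell cycle inhibitor p57, fell (-0.69 ± 0.18, adjusted p = 0.0163, -0.88 ± 0.23, adjusted p = 0.0332 with the term). Vcam1 rose (0.79 ± 0.22, adjusted p = 0.0223), its adjusted p was up to 0.0611 without WT_Adult 5 or KO_Adult 5, and a dimmer probe set averaged 51.0 in WT_Adult and 28.1 in KO_Adult. Rb1, the retinoblastoma gene, rose (1.22 ± 0.33, adjusted p = 0.0182), at 1.88 on KO_Adult 3 to 5 and 0.24 ± 0.28, adjusted p = 0.614 with the term, and lost its call without any 1 of 4 arrays (adjusted p up to 0.0554). Cdkn1c lost its call under median centring, and Cdkn1c, Vcam1 and Rb1 with the 10 adult arrays alone.

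In the insulin, IGF and mTOR list 4 of 31 genes rose and 5 fell (12.9% and 16.1%, against 7.32% and 9.37% of all genes). The median was -0.24. Rises numbered 2 without WT_Adult 3 (with 3 falls) and 1 without WT_Adult 4, KO_Adult 3 or KO_Adult 4. There were 1 rise and 4 falls with the title block, 1 and 3 with the 10 adult arrays alone and 6 and 3 under median centring. Of its 4 members called in both fits, Grb14, Grb10 and Akt1 act close to the insulin receptor. Grb14, an adaptor that inhibits the receptor, read 523, 661, 612, 453 and 489 in WT_Adult and 1958, 2214, 1117, 1025 and 1405 in KO_Adult and rose 2.77-fold (1.47 ± 0.21, adjusted p = 0.000174, 1.97 ± 0.21, adjusted p = 2.54e-05 with the term). Grb10, a related inhibitory adaptor, went the opposite way, at 1357, 1152, 1385, 1114 and 1282 in WT_Adult and 702, 640.5, 688, 754 and 780.1 in KO_Adult (-0.80 ± 0.12, adjusted p = 0.000263, -0.84 ± 0.15, adjusted p = 0.00373 with the term). Akt1, the kinase downstream of the receptor, read 573, 495, 857, 601 and 696 in WT_Adult and 306, 239.7, 324, 159.8 and 379.9 in KO_Adult (-1.12 ± 0.23, adjusted p = 0.00284, -1.09 ± 0.30, adjusted p = 0.0412 with the term). None of the 3 overlapped between groups. Tsc2, a restraint on mTOR complex 1, fell (-1.19 ± 0.22, adjusted p = 0.00145), and had -0.65 ± 0.21, adjusted p = 0.0776 with the term. Igfbp7 fell (-0.86 ± 0.23, adjusted p = 0.0151, -1.19 ± 0.28, adjusted p = 0.0197 with the term), its adjusted p was 0.0509 without WT_Adult 3, and dimmer probe sets averaged 75.5 and 11.4 in WT_Adult and 76.8 and 8.35 in KO_Adult. In the related list of myostatin, activin, BMP and TGF-beta genes 3 of 36 rose, Fst the largest of them, and 3 fell, near the share over all genes. Igfbp7 also lost its call under median centring and with the 10 adult arrays alone.

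Of 39 proteasome subunits and activators 6 rose and 1 fell (15.4% and 2.56%, against 7.32% and 9.37% of all genes). The median was 0.22, and 3 rose with the term, without WT_Adult 3 or without KO_Adult 3. With the title block 2 rose and 1 fell, and with the 10 adult arrays alone 1 rose. Psmd14, the deubiquitinase of the proteasome lid, read 2351, 2150.2, 1780.5, 2310.4 and 2128 in WT_Adult and 3280.5, 3469.8, 3741, 4461 and 3452 in KO_Adult (0.72 ± 0.12, adjusted p = 0.00091, 0.58 ± 0.15, adjusted p = 0.0316 with the term). Psma4, a core subunit, read 2754, 2556, 2446, 2867 and 3152 in WT_Adult and 3657, 3883, 4386, 4714 and 4376 in KO_Adult (0.54 ± 0.13, adjusted p = 0.00847, 0.37 ± 0.16, adjusted p = 0.158 with the term). Psmd12 and Psmb3 rose, with log2 differences of 0.39 and 0.55, but lost their calls without WT_Adult 3 (Psmd12, adjusted p = 0.0537) or any 1 of 4 arrays (Psmb3, up to 0.0570), and with the term had 0.44 ± 0.13, adjusted p = 0.0571 and 0.53 ± 0.21, adjusted p = 0.133. Psmb7, a catalytic core subunit, fell (-1.35 ± 0.34, adjusted p = 0.0117), which rested on KO_Adult 3 to 5: it read 8968, 8719.9, 9431, 11162 and 9053 in WT_Adult and 8927, 9074, 2106, 2239.8 and 2252 in KO_Adult, and had -0.20 ± 0.19, adjusted p = 0.535 with the term. Psmd12 and Psmb3 lost their calls with the title block, Psmb7 under median centring, and Psma4, Psmd12, Psmb3 and Psmb7 with the 10 adult arrays alone.

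Of 38 chaperone genes 1 rose and 7 fell (2.63% and 18.4%, against 7.32% and 9.37% of all genes). The median was -0.14, and 1 rose and 4 fell with the term. Leaving out WT_Adult 4 or KO_Adult 5 also gave 4 falls, and the title block gave 3. Hspa2, a heat shock protein of the Hsp70 family, was the 1 that rose, from 195, 166, 140.0, 103 and 124 in WT_Adult to 247, 280.1, 352, 301 and 310.4 in KO_Adult (1.23 ± 0.22, adjusted p = 0.0012, 1.09 ± 0.29, adjusted p = 0.0332 with the term). Fkbp4 and Stip1, co-chaperones of Hsp90, fell (-1.10 ± 0.22, adjusted p = 0.00277 for Fkbp4 and -0.91 ± 0.21, adjusted p = 0.00746 for Stip1), with -1.57 and -1.27 on KO_Adult 3 to 5. Their values with the term were -0.40 ± 0.16, adjusted p = 0.128 and -0.36 ± 0.20, adjusted p = 0.288. A dimmer Fkbp4 probe set averaged 44.7 in WT_Adult and 51.5 in KO_Adult. Hspb2, a small heat shock protein of muscle, read 5202, 6579, 9080.4, 6492 and 4037 in WT_Adult and 3610.3, 3806, 3164, 4092 and 2563 in KO_Adult (-0.88 ± 0.19, adjusted p = 0.0045, -0.77 ± 0.25, adjusted p = 0.0746 with the term). Dnaja4 fell (-0.87 ± 0.23, adjusted p = 0.0154) and had -0.65 ± 0.30, adjusted p = 0.195 with the term. Of its 2 other probe sets, one averaged 4045 in WT_Adult and 1761 in KO_Adult, a log2 difference of -1.41 with a limma adjusted p of 0.0487, and the other averaged 3455 and 3791. When arrays were centred on their median 3 chaperones were called higher and 2 lower. Dnaja4 lost its call with the title block, and Hspb2 and Dnaja4 under median centring.

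The ATF4 response induces amino acid and folate enzymes under stress. Of its 24 tested genes 2 rose and 4 fell (8.33% and 16.7%, against 7.32% and 9.37% of all genes). The median was -0.25. Only 2 fell without WT_Adult 3, KO_Adult 3 or KO_Adult 5. With the title block 0 rose and 1 fell, with the 10 adult arrays alone 0 rose and 2 fell, and under median centring 2 rose and 1 fell. Besides Chac1, the ATF4-related factor Atf5 fell, from 1548, 1388, 2540.3, 1563 and 2309 in WT_Adult to 848, 993, 1301, 958 and 1357 in KO_Adult (-0.76 ± 0.19, adjusted p = 0.0127, -0.93 ± 0.25, adjusted p = 0.0358 with the term). The tRNA synthetase genes Sars and Wars fell, with log2 differences of -0.73 and -0.78 with adjusted p = 0.0193 and 0.0224, and Vldlr rose (0.76 ± 0.23, adjusted p = 0.0271). These 3 lost their calls without any 1 of 3 to 5 arrays (adjusted p up to 0.0605, 0.0662 and 0.0828). With the term Sars had -0.26 ± 0.21, adjusted p = 0.465, Wars -0.18 ± 0.20, adjusted p = 0.608 and Vldlr 0.28 ± 0.25, adjusted p = 0.502. Atf5, Sars, Wars and Vldlr lost their calls with the title block, Atf5, Sars and Wars under median centring, and Sars, Wars and Vldlr with the 10 adult arrays alone.

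Metabolic lists differed in their share of falls, which was 9.37% over all genes. Of 33 genes of fatty acid uptake, lipolysis and oxidation 9 fell and 0 rose (27.3% lower), with a median of -0.38 (-0.51 on KO_Adult 3 to 5 and -0.20 with the term, when 2 fell). The falls numbered 14 without KO_Adult 1 and 5 without KO_Adult 3 or KO_Adult 4, 3 with arrays centred on their median and 4 with the 10 adult arrays alone. Slc27a1, the fatty acid transport protein of muscle, read 637, 608, 935, 689 and 689 in WT_Adult and 364, 256, 132, 146 and 188 in KO_Adult and fell 3.17-fold (-1.67 ± 0.22, adjusted p = 8.12e-05, -1.08 ± 0.20, adjusted p = 0.00457 with the term). Hadha, the alpha chain of the mitochondrial trifunctional protein, read 4728, 4436, 5679, 5676 and 5389.6 in WT_Adult and 4614, 3469, 1637, 1498 and 1975 in KO_Adult (-1.17 ± 0.24, adjusted p = 0.00294, -0.46 ± 0.19, adjusted p = 0.152 with the term). The beta-oxidation enzymes Eci1 and Acads and the carnitine acetyltransferase Crat fell, with log2 differences of -0.69, -0.57 and -0.57 with adjusted p = 0.00503, 0.00914 and 0.0103, and -0.40 ± 0.17, adjusted p = 0.16, -0.38 ± 0.17, adjusted p = 0.178 and -0.33 ± 0.16, adjusted p = 0.231 with the term. Eci1, Acads and Crat lost their calls under median centring, and Acads and Crat with the 10 adult arrays alone.

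Of 32 genes of glycolysis, glycogen and lactate 9 fell and 0 rose (28.1% lower), with a median of -0.23, and 2 fell with the term and 5 with the 10 adult arrays alone. Slc16a3 was the largest of these falls. Pkm, pyruvate kinase, read 14602, 13826, 19623, 18846 and 20057 in WT_Adult and 13549, 14037, 7692, 6869 and 8772 in KO_Adult (-0.78 ± 0.16, adjusted p = 0.00341, -0.35 ± 0.15, adjusted p = 0.162 with the term). Pygm, the muscle glycogen phosphorylase whose loss causes McArdle disease, read 17638, 17901, 25859, 22208 and 24537 in WT_Adult and 17087, 16504, 11288, 9349.6 and 12791 in KO_Adult (-0.62 ± 0.14, adjusted p = 0.00576, -0.32 ± 0.15, adjusted p = 0.196 with the term). The glycerol phosphate dehydrogenases Gpd1 and Gpd2 fell, with log2 differences of -1.24 and -0.55 (adjusted p = 0.00468 and 0.00576), and had -0.59 ± 0.27, adjusted p = 0.2 and -0.34 ± 0.14, adjusted p = 0.153 with the term. A dimmer Gpd1 probe set averaged 157 in WT_Adult and 139.7 in KO_Adult. Centring arrays on their median, which shifted the overall median from 0.04 to 0.20, left 3 glycolysis genes called lower and 1 higher, with the list's median at 0.03. Pkm, Pygm and Gpd2 lost their calls under median centring, and Pygm with the 10 adult arrays alone.

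Of 26 genes of the citrate cycle and pyruvate dehydrogenase 1 rose and 7 fell (3.85% and 26.9%), with a median of -0.17, and with the term 1 rose and 0 fell. Among the 4 tested kinases that switch off pyruvate dehydrogenase, Pdk2 fell, Pdk3 rose, and Pdk1 (-0.01 ± 0.24, adjusted p = 0.974) and Pdk4 (0.28 ± 0.25, adjusted p = 0.447) were not called. Pdk2 read 5986, 5266, 7541, 5145 and 5557 in WT_Adult and 4701, 3284, 770.3, 715 and 916 in KO_Adult, a difference of -1.99 ± 0.39, adjusted p = 0.00226 that was -2.88 on KO_Adult 3 to 5 and -0.65 ± 0.21, adjusted p = 0.0659 with the term. Pdk3 read 55, 72.4, 71.1, 45.5 and 34.5 in WT_Adult and 187, 276, 98.3, 112 and 160.3 in KO_Adult, a difference of 1.71 ± 0.39, adjusted p = 0.00647 that was also called with the term (2.24 ± 0.49, adjusted p = 0.0144). Ogdh, Idh2 and Dlst fell, with log2 differences of -0.69, -0.65 and -0.50 (adjusted p = 0.00643, 0.014 and 0.016), and Dlst had an adjusted p of 0.0522 without WT_Adult 3. With the term they had -0.37 ± 0.17, adjusted p = 0.198, -0.50 ± 0.22, adjusted p = 0.178 and -0.49 ± 0.17, adjusted p = 0.0986. Centred on the median, 1 gene of this list was called higher and 1 lower. Of the list 3 fell without WT_Adult 3, and 4 without KO_Adult 3 or KO_Adult 4. With the title block 1 rose and 3 fell, and with the 10 adult arrays alone 1 rose and 1 fell. Of 60 genes of the respiratory chain and ATP synthase 1 was called higher and 2 lower (1.67% and 3.33%), with a median of -0.01. Ogdh, Idh2 and Dlst lost their calls under median centring and with the 10 adult arrays alone, and Dlst with the title block.

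Of 19 genes of cholesterol and lipid synthesis 5 fell and 0 rose (26.3% lower), with a median of -0.44, and 2 fell with the term. There were 3 falls without WT_Adult 3, KO_Adult 3, KO_Adult 4 or KO_Adult 5, with the title block and with the 10 adult arrays alone, and 2 with arrays centred on their median. Lpin3 is given above. Elovl5, an elongase of polyunsaturated fatty acids, read 569.8, 564, 741, 832 and 652 in WT_Adult and 408, 311, 406, 384 and 422 in KO_Adult (-0.71 ± 0.16, adjusted p = 0.00682, -0.78 ± 0.21, adjusted p = 0.0392 with the term). Srebf2, the master regulator of cholesterol synthesis, fell (-0.98 ± 0.26, adjusted p = 0.0141) and had -0.66 ± 0.32, adjusted p = 0.219 with the term. Acly and Lpin1 fell, with log2 differences of -0.68 and -0.73, but lost their calls without any 1 of 4 and 6 arrays (adjusted p up to 0.0779 and 0.0789) and with the term (-0.49 ± 0.26, adjusted p = 0.258 and -0.52 ± 0.29, adjusted p = 0.286). Dimmer Acly probe sets averaged 23.9 and 307 in WT_Adult and 41.1 and 274 in KO_Adult. Of 25 genes of amino acid, creatine and purine metabolism 2 rose and 4 fell (8% and 16%, against 7.32% and 9.37% of all genes). There were 7 falls without KO_Adult 1, 2 with the 10 adult arrays alone, 2 under median centring and 0 with the term. Sat1, which acetylates polyamines for their breakdown, read 926, 1215, 869.8, 906 and 1296 in WT_Adult and 2751, 1968, 2203, 2185 and 1625 in KO_Adult (1.0 ± 0.22, adjusted p = 0.00421, 1.15 ± 0.28, adjusted p = 0.0246 with the term). Adssl1, the muscle enzyme of the purine nucleotide cycle, fell (-0.63 ± 0.14, adjusted p = 0.0045), at -0.88 on KO_Adult 3 to 5 and -0.26 ± 0.12, adjusted p = 0.192 with the term. The adenylate kinase gene Ak1 fell (-0.47 ± 0.14, adjusted p = 0.0243, -0.56 ± 0.18, adjusted p = 0.0667 with the term), and a dimmer probe set averaged 83.5 in WT_Adult and 94.4 in KO_Adult. Ampd3, an AMP deaminase, fell (-1.23 ± 0.28, adjusted p = 0.00648, -1.27 ± 0.38, adjusted p = 0.0522 with the term), as did Bcat2, which starts the breakdown of branched-chain amino acids (-2.10 ± 0.48, adjusted p = 0.00641, -0.59 ± 0.34, adjusted p = 0.302 with the term). Acly, Lpin1 and Ak1 lost their calls with the title block, Elovl5, Acly, Lpin1, Adssl1 and Ak1 under median centring, and Srebf2, Lpin1, Ak1 and Bcat2 with the 10 adult arrays alone.

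Collagens and their processing enzymes had different levels on knockout arrays with and without poly-A signal. Of 36 fibroblast markers and collagens 7 fell and 0 rose (19.4% lower, against 9.37% of all genes), with a median of -0.47. That median was -0.70 on KO_Adult 3 to 5 and -0.04 with the term, when 0 fell and 1 rose. Without KO_Adult 2, 14 fell, and under median centring 4 fell and 1 rose. The summed signal was 56261 to 73666 in WT_Adult, 74090 to 80314 on KO_Adult 1 and 2 and 37302 to 61412 on KO_Adult 3 to 5. Col1a1, the main chain of type I collagen, read 2354, 2315, 3161, 1622 and 1222 in WT_Adult and 2178, 769, 106, 83.8 and 160.2 in KO_Adult. KO_Adult 1 lay within the wild-type range, KO_Adult 2 below it and the other 3 far below. Its log2 difference was -2.66 ± 0.65, adjusted p = 0.00928, -4.03 on KO_Adult 3 to 5 and -0.62 ± 0.46, adjusted p = 0.424 with the term, and a second probe set averaged 461 in WT_Adult and 430.0 in KO_Adult. Col15a1, a basement membrane collagen, fell (-2.01 ± 0.45, adjusted p = 0.00569) and had -1.14 ± 0.52, adjusted p = 0.191 with the term. Col4a1, the basement membrane collagen also made by vessels, fell (-0.72 ± 0.15, adjusted p = 0.00349, -0.46 ± 0.18, adjusted p = 0.121 with the term). The collagen-modifying enzyme gene Plod1 and the collagen chaperone gene Serpinh1 fell, at -0.92 and -1.37. Neither was called with the term (-0.36 ± 0.20, adjusted p = 0.266 and -0.56 ± 0.31, adjusted p = 0.287). Col4a1 lost its call under median centring, and Col1a1 with the 10 adult arrays alone.

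Of 38 matrix glycoproteins and proteases 4 rose and 6 fell (10.5% and 15.8%, against 7.32% and 9.37% of all genes). With the term 5 rose and 1 fell, with the title block 2 and 2, with the 10 adult arrays alone 3 and 2, and under median centring 4 and 3. Npnt, encoding the integrin ligand nephronectin, read 117, 87, 152, 122 and 167 in WT_Adult and 403, 398, 208, 277 and 201 in KO_Adult and rose 2.55-fold (1.35 ± 0.23, adjusted p = 0.00091, 1.85 ± 0.25, adjusted p = 0.00034 with the term), although a dimmer probe set averaged 32.4 in WT_Adult and 12.1 in KO_Adult. Hspg2, the basement membrane proteoglycan perlecan, read 629.6, 609, 1482, 1325 and 1099.7 in WT_Adult and 491, 395, 486, 346 and 735 in KO_Adult (-0.99 ± 0.23, adjusted p = 0.00714, -1.07 ± 0.31, adjusted p = 0.0453 with the term). Sparc and the laminin chain Lamb2 fell, with log2 differences of -0.85 and -0.69 (adjusted p = 0.0113 and 0.0147), and neither was called with the term (-0.40 ± 0.23, adjusted p = 0.306 and -0.30 ± 0.20, adjusted p = 0.357). The part of the lower endothelial marker signals in the falls of basement membrane genes was not tested. Lamb2 lost its call with the title block, Sparc and Lamb2 under median centring, and Hspg2, Sparc and Lamb2 with the 10 adult arrays alone.

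Of 26 macrophage and monocyte markers 3 rose and 0 fell (11.5% higher, against 7.32% of all genes). Above 0 were 24 of the 26 differences, and the median was 0.56. With the term 0 were called and the median was 0.76. The rises numbered 1 without WT_Adult 1, 3 or 5 or KO_Adult 5, 5 without KO_Adult 1, 1 with the title block and 0 with the 10 adult arrays alone. Cd68, a lysosomal glycoprotein of macrophages, went the other way without overlap, at 1045, 981, 976, 561 and 595 in WT_Adult and 454, 495, 443, 515 and 333 in KO_Adult, and was not called (-0.79 ± 0.29, adjusted p = 0.0755, -0.65 ± 0.39, adjusted p = 0.322 with the term). The summed signal overlapped, at 7447 to 15107 in WT_Adult and 10624 to 19705 in KO_Adult. Gpnmb, a glycoprotein of phagocytic macrophages, read 120.3, 108, 103, 74 and 95.4 in WT_Adult and 380.5, 354, 148, 133 and 1719 in KO_Adult (1.95 ± 0.48, adjusted p = 0.00959, 2.07 ± 0.64, adjusted p = 0.0615 with the term). Ctss and Ptprc rose, with log2 differences of 1.08 and 1.19, but lost their calls without any 1 of 4 and 7 arrays (adjusted p up to 0.0737 and 0.132) and with the term (0.75 ± 0.41, adjusted p = 0.278 and 0.47 ± 0.47, adjusted p = 0.559). Mpeg1 was not called (1.16 ± 0.42, adjusted p = 0.0635). Of 8 tested neutrophil markers 0 were called by limma, with 1 higher and 0 lower at an unadjusted p under 0.05, although all 8 differences were above 0 with a median of 0.87. S100a8 read 127, 449, 489.8, 234 and 282 in WT_Adult and 436, 619, 1530.5, 932 and 181 in KO_Adult (1.16 ± 0.55, adjusted p = 0.153). The log2 differences of S100a9, Csf3r, Fpr2 and Il1r2 were 1.34, 1.01, 0.74 and 0.65, with limma adjusted p = 0.163, 0.302, 0.361 and 0.458, and without KO_Adult 3 the list's median was 0.54. Of 5 lymphocyte and mast cell markers 0 were called by limma, with 0 higher and 3 lower at an unadjusted p under 0.05, and all 5 differences were below 0, with a median of -0.85. On KO_Adult 3 to 5 the median was -1.45. With the term it was 0.06 and 4 of the 5 differences were above 0, for Tpsb2, Mcpt4, Cma1 and Cpa3 at 0.06, 0.40, 0.48 and 0.03, while the immunoglobulin gene Ighm was at -1.46. The chemokine and cytokine list held 2 rises and 0 falls among its 30 tested members. Its 6.67% called higher lay below the 7.32% over all genes, and with the term 0 were called higher and 1 lower. Ctss and Ptprc lost their calls with the title block, and Gpnmb, Ctss and Ptprc with the 10 adult arrays alone.

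Of 19 tested complement regulators and acute phase genes 6 rose and 0 fell (31.6% higher, against 7.32% of all genes). The median was 0.42, and 3 rose with the term, when the median was 0.86. That median was 0.09 on KO_Adult 3 to 5, 0.05 without KO_Adult 2, 0.15 without WT_Adult 4 and -0.01 without WT_Adult 4 and 5 together. Cd59a, the membrane inhibitor of the complement attack complex, read 443, 404, 411, 428 and 414 in WT_Adult and 1068, 1239, 948, 814 and 1862 in KO_Adult and rose 2.81-fold (1.49 ± 0.20, adjusted p = 7.88e-05, 1.55 ± 0.26, adjusted p = 0.00219 with the term). A second probe set averaged 410 in WT_Adult and 892 in KO_Adult. C1s1, a protease of the first complement component, read 315, 379, 347, 353 and 411 in WT_Adult and 618, 852, 466, 469 and 723 in KO_Adult (0.86 ± 0.20, adjusted p = 0.00635, 1.15 ± 0.24, adjusted p = 0.00961 with the term). The acute phase genes Ptx3 and Saa3 rose (2.13 ± 0.48, adjusted p = 0.00606 for Ptx3 and 3.10 ± 0.77, adjusted p = 0.0106 for Saa3), with 13.5, 115, 108, 56.1 and 133 in WT_Adult and 177, 826, 2223, 469 and 306 in KO_Adult for Saa3, and neither was called with the term (1.48 ± 0.61, adjusted p = 0.145 and 2.66 ± 1.03, adjusted p = 0.125). The macrophage and neutrophil marker values stand above, and their part in these rises was not tested.

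The S100 proteins, annexins and serpins, calcium- and membrane-binding proteins and protease inhibitors, rose in several members in both fits. Of 20 tested 6 rose and 2 fell (30% and 10%, against 7.32% and 9.37% of all genes). The median was 0.50, and with the term 7 rose and 0 fell. Under median centring 11 rose and 2 fell, while of all 7436 genes 916 rose and 368 fell. Serpinb6a, an intracellular inhibitor of serine proteases, read 4633, 3749, 3988, 3190.3 and 3055 in WT_Adult and 12587, 13598, 11223, 10940.4 and 10707 in KO_Adult and rose 3.02-fold (1.59 ± 0.11, adjusted p = 7.39e-08, 1.64 ± 0.15, adjusted p = 7.23e-06 with the term). Anxa4, an annexin that binds membranes in the presence of calcium, read 342, 404, 432, 374 and 475 in WT_Adult and 880.5, 1039, 1022, 1244 and 859.8 in KO_Adult and rose 2.58-fold (1.37 ± 0.13, adjusted p = 3.1e-06, 1.35 ± 0.17, adjusted p = 0.000162 with the term). A second Anxa4 probe set averaged 390.3 in WT_Adult and 858 in KO_Adult. Serpinb6a, Anxa4, S100a13, S100a4 and Serpinb1a are the 5 members of the list with the smallest p. All 5 rose in both fits without overlap, a condition of the rule that named S100a4, S100a13 and Serpinb1a above.

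Of 36 genes of tubulins, actins and motors 4 rose and 3 fell (11.1% and 8.33%, against 7.32% and 9.37% of all genes). There was 1 fall without KO_Adult 5. With the title block 2 rose and 2 fell, with the 10 adult arrays alone 4 and 1, and under median centring 7 and 0. Besides Myo5a, Map1b, a microtubule-binding protein, read 149.8, 121, 112, 91.9 and 152 in WT_Adult and 214, 160.1, 478, 523 and 498 in KO_Adult (1.59 ± 0.26, adjusted p = 0.000688, 0.80 ± 0.20, adjusted p = 0.0286 with the term), and a dimmer probe set averaged 19.9 in WT_Adult and 13.5 in KO_Adult. Rdx, encoding radixin, which links actin to membranes, rose (0.82 ± 0.21, adjusted p = 0.0127), and Pfn1, encoding the actin monomer-binding profilin, fell (-0.88 ± 0.18, adjusted p = 0.00282). Their values with the term were 0.47 ± 0.25, adjusted p = 0.262 and -0.50 ± 0.19, adjusted p = 0.126. Kif1c, a kinesin, fell (-0.53 ± 0.14, adjusted p = 0.0176), had -0.33 ± 0.17, adjusted p = 0.262 with the term and an adjusted p of 0.0522 without KO_Adult 5, and another probe set averaged 140.2 in WT_Adult and 252 in KO_Adult. Rdx lost its call with the title block, Pfn1 and Kif1c under median centring, and Kif1c with the 10 adult arrays alone.

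Of 28 replication and cell cycle genes 4 rose and 3 fell (14.3% and 10.7%, against 7.32% and 9.37% of all genes). The median was 0.06, near the 0.04 over all genes. With the term 1 rose and 1 fell, and with the 10 adult arrays alone 2 rose and 2 fell. Mcm6, a subunit of the replicative helicase, read 47.1, 68, 87.9, 94.3 and 68.9 in WT_Adult and 178, 186, 198, 162 and 156 in KO_Adult (1.48 ± 0.29, adjusted p = 0.00215, 1.55 ± 0.39, adjusted p = 0.026 with the term). Dtl, a ubiquitin ligase adaptor of S phase, rose (2.92 ± 0.51, adjusted p = 0.000996), with 3.74 on KO_Adult 3 to 5 and 1.70 ± 0.52, adjusted p = 0.0601 with the term. Pcna, the sliding clamp of replication, read 1217, 1079, 944, 1339.5 and 1314 in WT_Adult and 1409.5, 1775, 2359, 1797 and 1857 in KO_Adult (0.60 ± 0.15, adjusted p = 0.0113, 0.44 ± 0.19, adjusted p = 0.172 with the term). E2f4 fell, as above, and Ccnd3, cyclin D3, fell (-1.19 ± 0.30, adjusted p = 0.0109, -0.56 ± 0.33, adjusted p = 0.306 with the term). Pcna lost its call with the 10 adult arrays alone.

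Of 9 erythroid and platelet genes 3 fell and 0 rose (33.3% lower, against 9.37% of all genes), with a median of -0.53. With the term 1 fell and the median was -0.30. The summed signal was 7605 to 18224 in WT_Adult and 5329 to 8061 in KO_Adult, so the ranges overlapped. There were 2 falls with the title block, with the 10 adult arrays alone and under median centring. Without WT_Adult 5, 5 fell. Car2, a carbonic anhydrase of red cells and other tissues, read 401, 288, 334, 429 and 363 in WT_Adult and 90.5, 68.4, 74.1, 68.1 and 91.7 in KO_Adult and fell 3.91-fold (-1.97 ± 0.21, adjusted p = 1.07e-05, -1.99 ± 0.28, adjusted p = 0.000577 with the term). Alas2, the first enzyme of erythroid haem synthesis, read 4477, 726, 1679, 1129 and 572 in WT_Adult and 501, 348, 226, 109.7 and 232 in KO_Adult (-2.25 ± 0.54, adjusted p = 0.00841, -1.52 ± 0.68, adjusted p = 0.18 with the term). Fech, the last enzyme of haem synthesis, fell (-0.53 ± 0.16, adjusted p = 0.0309), lost the call without any 1 of 5 arrays (adjusted p up to 0.0873) and had -0.30 ± 0.20, adjusted p = 0.361 with the term, and a dimmer probe set averaged 5.75 in WT_Adult and 29.1 in KO_Adult. Slc4a1 (-0.98 ± 0.37, adjusted p = 0.074) and Hbb-b2 (-2.07 ± 0.77, adjusted p = 0.074) were not called. Of 10 adipocyte markers 1 fell and 0 rose (10% lower, against 9.37% of all genes). The fall was that of Lipe (-1.08 ± 0.34, adjusted p = 0.0358). Its call was lost without any 1 of 6 arrays (up to 0.102) and with the term (-0.65 ± 0.43, adjusted p = 0.365). Cebpa, Slc2a4, Lpl and Scd1 were not called, with limma adjusted p = 0.112, 0.2, 0.218 and 0.305. A second Lpl probe set averaged 2933 in WT_Adult and 1364 in KO_Adult, a log2 difference of -1.04 with a limma adjusted p of 0.0256. Fech and Lipe lost their calls with the title block, and Fech under median centring and with the 10 adult arrays alone.

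The remaining lists had neither 3 calls at 1.5 times the share of all genes in 1 direction nor a median 0.4 away from that of all genes. They were stretch-responsive ankyrin, LIM and Xin genes (0 of 13 higher, 2 lower), fibre membrane channels and pumps (1 and 2 of 14), mitochondrial biogenesis, import and dynamics (2 and 3 of 30) and atrophy ubiquitin ligases and autophagy (3 and 4 of 32). Ribosomal proteins had 1 and 1 of 39, and ribosome biogenesis and translation factors 1 and 2 of 32. The endoplasmic reticulum unfolded protein response had 1 and 2 of 25, oxidative stress and metal response 2 and 4 of 29, and immediate early genes 0 and 3 of 32. The circadian clock had 1 and 1 of 19, interferon and antigen presentation 2 and 1 of 22, tendon and cartilage markers 0 and 0 of 6 by limma (0 and 1 at an unadjusted p under 0.05), and nerve and Schwann cell markers 0 and 1 of 7. The p53 targets and cell death genes had 0 and 0 of 19 by limma, with 1 higher and 1 lower at an unadjusted p under 0.05, and 0 and 0 with the poly-A term.

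**Figure D5:**
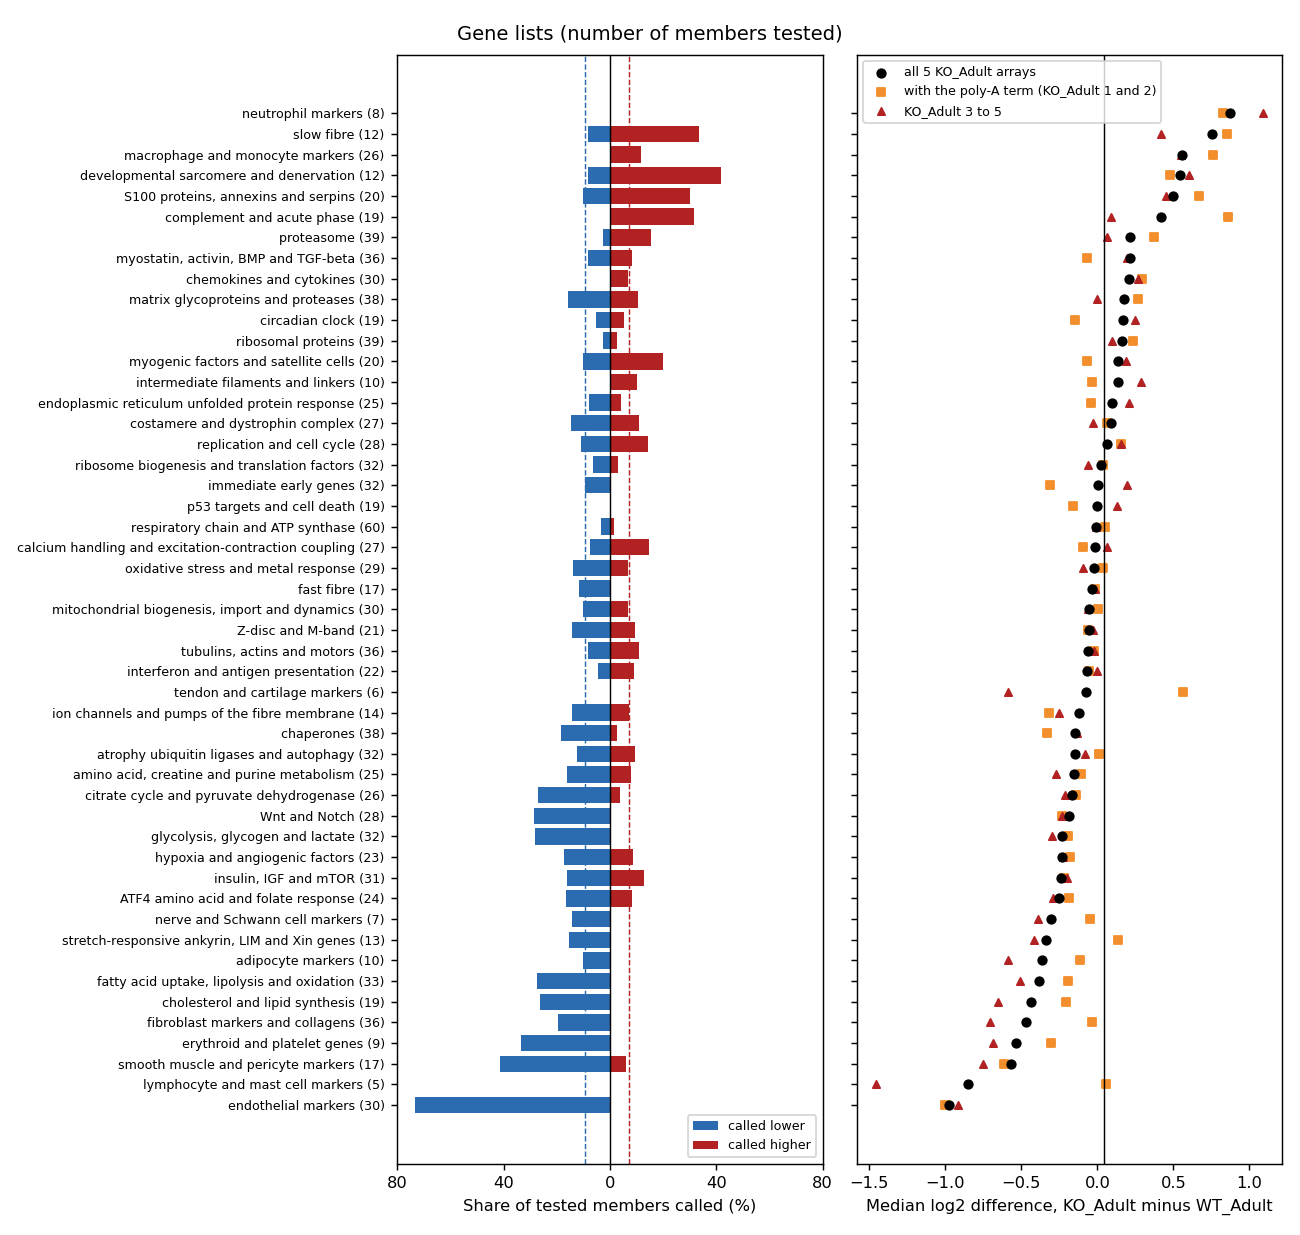
For each gene list (number of tested members in brackets), the left panel gives the share of members called lower (blue, leftward) and higher (red, rightward) in percent, with dashed lines at the shares over all genes tested, and the right panel the median log2 difference over all 5 KO_Adult arrays (circles), with the poly-A term (squares) and for KO_Adult 3 to 5 (triangles), with a line at the median of all genes. Endothelial markers have the largest share called lower, 73.3%, and medians near -1 in all 3 forms, whereas the medians of fibroblast markers and collagens run from -0.70 to -0.04.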

How the data were processed

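Each deposited value is an intensity, linear and not log-transformed, for 1 probe set on 1 array. Per the submitters' processing notes the authors used MAS5, and no version of it is stated. Total RNA was extracted from the muscle and labelled with biotin as cRNA, per the labels' protocols. There are 22690 probe sets, including 64 controls. The mean of each array after trimming 2% at each end was 500.2 to 500.3, so the arrays had been scaled to 1 common level before deposit.

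Control probe sets were set aside, 4.758 (the percentile 10 of all values) was added before log2, and arrays were quantile normalized. Symbols came from the platform annotation: 20380 probe sets had 1 symbol, 691 several and 1619 none, and the last 2 kinds were not used. Each gene was represented by its brightest probe set over all arrays, and the brightest 60% of 12393 genes, 7436, were tested. Normalization forces the same distribution on every array, so changes are relative to all genes. A fold is on the log2(signal + pseudocount) scale and understates changes of dim genes. A linear model of group means was fitted to all 19 arrays in limma 3.58.1 under R 4.3.3 (lmFit and eBayes), tested two-sided with Benjamini-Hochberg adjustment. The poly-A term marks arrays whose dap control exceeds 100. The model was tested on simulated data. Tables and plots used pandas 2.3.3, matplotlib 3.10.9 and numpy 2.4.6 in Python 3.11.15. For genes named by the rule and called, probe sets whose difference had the opposite sign are given beside the gene. The number of arrays limits the precision.

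The rule named Des, the 12 largest rises and 12 largest falls called in both fits without overlap between groups (clone-style symbols passed over), and up to 5 members with the smallest p from each list described, 156 genes in all; 1 of the 12 falls is not reported here. A list was described where at least 3 members were called in 1 direction at 1.5 times the share of all genes, or its median lay 0.4 from theirs, which held for 30 of 49. The comparison, the members and the lists were chosen with earlier results of these data known. The alternatives covered normalization, pseudocount, filter, choice of probe set, arrays and groups in the fit, the variance model, title codes as a block, and leaving out each array. The fit of KO_Adult arrays with control signal alone and the 10-array fit with the term were chosen after seeing the data.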

Additional observations from a re-analysis of the deposited data

Results flagged for a closer look

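In 11 of the 312 groups of 5 arrays examined for the named genes, 1 array stood apart from the other 4 by over 0.71 of the group's range. Chance alone gives about 1 in 20 such groups. WT_Adult 3 was the array in 5 of them: it read 10683 for Ogdh against 7254 to 8114 on the other wild-type arrays, 935 for Slc27a1 against 608 to 689, 2549 for Acads against 1769 to 1953, 1542 for Tsc2 against 849.7 to 1007, and 1864 for Lamb2 against 1088 to 1200.3. It was the highest array in all 5. WT_Adult 4 read 303 for Tie1, below the 367 to 456 of the others. In the knockout group, KO_Adult 2 read 157 for Rab7b against 266 to 315, 95.4 for Myh3 against 162 to 199.6, and 311 for Elovl5 against 384 to 422. KO_Adult 5 read 364 for Cdkn1c against 175 to 210.2, and KO_Adult 4 read 1076 for Camk2d against 546 to 626.

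The dap poly-A control, which is no measurement of the muscle, averaged 1713 on KO_Adult 3 to 5, against 1 to 6.57 on the WT_Adult arrays.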

How the results depend on the processing

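The count of called genes, 1241, depended on how arrays and spread were treated. It was 496 with the poly-A term, 160 with the term and the 10 adult arrays alone, and 106 over arrays without the control signal. It was 624 with the 10 adult arrays and no term, 652 with the title code as a random block, 3802 with array weights and 2612 with only KO_Adult 3 to 5 in the knockout group. It was 504 at an adjusted p under 0.01, and 397 with a log2 difference of at least 1. The other settings gave 959 to 1417, among them centring on the median, with 71.3% of calls higher, and no normalization, with 29.7%, against 43.8%. Leaving out 1 array at a time gave 751 (without WT_Adult 3) to 1521 (without KO_Adult 2). Of 156 named genes 138 were called, 70 of them also with the term, and 112 kept the call whichever array was left out. Of the 138, 37 lost the call with the 10 adult arrays alone, 33 with arrays centred on their median, 24 with the title code as a random block, 14 with the mean of all probe sets, 14 without WT_Adult 4 and 5, 13 with no filter and 8 with no normalization. Des kept its direction and call under every alternative run. Under the mean of all probe sets of a gene, Ldb3 and Fech changed sign, to 0.0799 and 0.144; the alternative averages in their other probe sets. The number of endothelial markers called lower, 22, was 15 to 25 under the alternatives run for lists, except for 9 over arrays without control signal and 12 with the 10 adult arrays and the term. No paired analysis was possible because the labels give no replicate numbers shared between groups. Signal over background was not assessed, since present calls were not used.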

Other observations

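Some genes not described above changed in both fits with no overlap between the groups, and were chosen after their values were seen. Several are known from blood vessels. Pde2a, a cyclic nucleotide phosphodiesterase, read 788, 846, 1154, 1095 and 808 in WT_Adult and 219, 200.5, 186, 326 and 211 in KO_Adult and fell (-1.95 ± 0.28, adjusted p = 0.000176, -2.01 ± 0.37, adjusted p = 0.00417 with the poly-A term). Ephb4, the ephrin receptor of veins, fell (-1.66 ± 0.38, adjusted p = 0.00659, -1.89 ± 0.51, adjusted p = 0.0349 with the term). Gja4, a gap junction protein of arterial endothelium, fell (-1.23 ± 0.24, adjusted p = 0.00239), as did Car4, a membrane-bound carbonic anhydrase of capillaries (-1.42 ± 0.25, adjusted p = 0.0012). The matrix protein gene Tinagl1 fell (-1.92 ± 0.30, adjusted p = 0.000377).

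Others are known from the fibre or from metabolism. Clcn1, the chloride channel that stabilises the resting potential of muscle fibres and is mutated in myotonia, read 714, 522, 909, 753 and 636 in WT_Adult and 399, 289, 135, 154 and 197 in KO_Adult and fell (-1.56 ± 0.25, adjusted p = 0.000476, -0.92 ± 0.24, adjusted p = 0.0307 with the term). Ppif, encoding the mitochondrial cyclophilin D, fell (-1.78 ± 0.28, adjusted p = 0.000411), as did Nr1d1, the clock repressor REV-ERB alpha (-1.68 ± 0.26, adjusted p = 0.000377). Among rises, Egf read 574, 457, 301, 527 and 524 in WT_Adult and 1341, 1676, 1318, 1372 and 1652 in KO_Adult (1.68 ± 0.18, adjusted p = 8.45e-06, 1.74 ± 0.23, adjusted p = 0.000318 with the term). Il13ra1, a chain of the interleukin-13 receptor, rose (1.74 ± 0.24, adjusted p = 0.000106), as did Tspo, the translocator protein of the outer mitochondrial membrane (1.41 ± 0.29, adjusted p = 0.00285). Slc1a1, a glutamate transporter, rose (1.77 ± 0.26, adjusted p = 0.000289), as did Pkp2, a plakophilin of desmosomes, to which intermediate filaments attach in other tissues (1.42 ± 0.24, adjusted p = 0.000762).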
